A study of Mus musculus with 48 samples.

Results

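The genes described here are 41 genes of the p53 response and of DNA repair outside mismatch repair, followed across 6 genotypes in the cerebral cortex of 48 mice. They were taken by gene name from a list of p53 pathway genes (11), damage signalling genes (6) and genes of double-strand break repair (11), base excision repair (9) and nucleotide excision repair (4). All 41 names were found among the 48795 genes of the count table, and all 41 were among the 20010 genes tested. All 41 had reads in all 48 mice.

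The study crossed a mouse model of Huntington's disease with mice altered in Msh3, and messenger RNA of the cortex was sequenced at 6 months of age. The Q140 allele is Htt with a lengthened CAG repeat knocked in, present here on 1 chromosome of the pair, and Msh3 encodes a mismatch repair protein that acts on small loops of extra bases. The groups were 7 wild type mice (WT), 8 Q140 mice, 9 mice labelled Msh3+/-, 8 labelled Q140 x Msh3+/-, 8 labelled Msh3-/- and 8 labelled Q140 x Msh3-/-, with 24 females and 24 males in all, listed under a C57BL/6 background that all groups share. The labels do not describe how the Msh3 allele was made.

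p53 is a transcription factor that the cell holds at a low level through Mdm2 and Mdm4. Damage kinases such as Atm and Atr, acting in part through Chek1 and Chek2, stabilise it, and it then raises transcription of genes that halt the cell cycle (Cdkn1a), prepare cell death (Bax, Bbc3, Pmaip1) or feed back on p53 itself (Mdm2). In post-mitotic neurons the breaks, oxidised bases and bulky lesions that arise are handled mainly by end joining, base excision and nucleotide excision, whereas homologous recombination genes such as Brca1 are known chiefly from dividing cells.

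Promoter letters are shown for 3 of the genes on which the results turn. Mdm2 and Cdkn1a are direct p53 targets, and Setmar had the smallest p of the 41 in the Q140 comparison with WT. Each line gives the 250 bases before the annotated start site from RefSeq on GRCm38.p6, read along the gene's strand, with capitals marking matches to the consensus p53 half-site, which reads the same on both strands. The windows are chr10:117710759-117711008 (minus strand) for Mdm2, chr17:29090729-29090978 (plus strand) for Cdkn1a and chr6:108064795-108065044 (plus strand) for Setmar.
Mdm2: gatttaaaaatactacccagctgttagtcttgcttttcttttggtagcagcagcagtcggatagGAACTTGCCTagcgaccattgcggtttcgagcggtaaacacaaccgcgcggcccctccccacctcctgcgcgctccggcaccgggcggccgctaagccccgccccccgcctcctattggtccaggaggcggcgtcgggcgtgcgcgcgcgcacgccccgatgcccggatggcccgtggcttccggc
Cdkn1a: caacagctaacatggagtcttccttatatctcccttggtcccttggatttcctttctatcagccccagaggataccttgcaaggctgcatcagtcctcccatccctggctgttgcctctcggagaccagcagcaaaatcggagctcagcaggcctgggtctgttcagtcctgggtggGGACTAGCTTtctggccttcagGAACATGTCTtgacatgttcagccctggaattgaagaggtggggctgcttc
Setmar: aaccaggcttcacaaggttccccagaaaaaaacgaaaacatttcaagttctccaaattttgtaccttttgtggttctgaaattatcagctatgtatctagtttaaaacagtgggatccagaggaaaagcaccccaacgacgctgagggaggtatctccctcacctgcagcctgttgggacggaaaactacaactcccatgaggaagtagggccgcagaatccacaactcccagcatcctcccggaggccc
The Mdm2 window held 1 match, 186 to 177 bases before the start, and the Cdkn1a window held 2, at 73 to 64 and 51 to 42 bases before it. The Setmar window held 0. Sites farther than 250 bases before a start were not searched for, and binding of p53 was not measured. Over windows of 250 bases before to 50 bases after a start site, 9 of the 33 members with an entry in the promoter table held a half-site (27.3%), beside 9.55% of 27025 genes. These 9 were Trp53, Mdm2, Cdkn1a, Bax, Ccng1, Sesn1, Gadd45a, Fen1 and Neil1. A pair of half-sites at most 13 bases apart was found in 1 member, Cdkn1a, beside 0.0740% of genes. Pmaip1, H2afx, Rad50, Nbn, Prkdc, Fancd2, Polb and Xpc had no entry.

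Libraries held 35946572 to 64479357 counts (mean 46520957). Msh3, the targeted gene, was not low in the altered groups but higher: on the log2 scale it stood 1.48 ± 0.05 (SE) above WT in mice labelled Msh3+/- and 2.17 ± 0.05 above WT in mice labelled Msh3-/- (edgeR adjusted p = 3.37e-29 and 3.20e-36). Directions given below for these groups therefore refer to the labels, not to a measured loss of Msh3 RNA. Htt did not differ between Q140 and WT in this test (0.00 ± 0.03, adjusted p = 0.994). Choroid plexus RNA was seen in 3 libraries, Msh3-/- female 4, Msh3-/- female 3 and WT male 3, in which Ttr reached 106 to 1093 CPM (counts scaled to a common library total), and 3 others (Msh3+/- male 2, Q140 male 1 and male 4 of Q140 x Msh3-/-) lay far from the rest on principal component 2, which held 6.69% of variance. None of the 41 genes lies within 10 Mb of Htt or Msh3. Cortex is a mixture of cell types, so fewer cells of a type and less RNA per cell cannot be told apart in any value below.

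The p53 arm was expressed at moderate levels in cortex, with wide differences between its targets. By the authors' FPKM, which accounts for gene length, Ccng1 (a cyclin G induced by p53) was the most abundant of the 41 genes at 28.5 ± 2.55 (SD, n = 48 mice), followed by Sesn1 (a stress-induced sestrin) at 19.5. Bax, the mitochondrial pore protein of apoptosis, stood at 14.3 FPKM, Mdm2 at 9.26, Mdm4 at 8.52, Cdkn1a at 6.20 and Trp53 itself at 4.17. The lowest p53 targets were the BH3-only death genes Bbc3 (Puma) at 1.42 and Pmaip1 (Noxa) at 1.02.

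Levels of the repair genes spanned a wide range. Base excision repair held Parp1 (the strand break sensor) at 14.3 FPKM, Polb (the gap-filling polymerase) at 12.8 and Apex1 (the abasic-site endonuclease) at 12.6, whereas the uracil glycosylase Ung stood at 0.286. End joining and break sensing genes were in between, with Nbn at 6.56, Xrcc5 (Ku80) at 6.28, Rad50 at 4.45, Xrcc6 (Ku70) at 3.58, Prkdc (the DNA-PK kinase) at 3.32 and Lig4 at 2.34. Several genes of homologous recombination and of the checkpoint were also low: Brca2 stood at 0.558, Fancd2 at 0.408, Chek1 at 0.310, Chek2 at 0.280 and Brca1 at 0.156. Chek2 was also the least counted member, with 16 to 57 reads per library. Exons of Fen1 (the flap endonuclease, 78.8% of its exon bases), Apex1 (61.7%), Lig3 (25.1%), Ercc2 (24.6% with 1 gene and 17.8% with another), Gadd45a (19.1%) and Trp53bp1 (15.0%) overlap genes on the other strand in GENCODE M21, and other members do so over smaller shares, and the strand setting of the counting was not given in the sources used here, so their levels are the less certain.

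**Figure D1:**
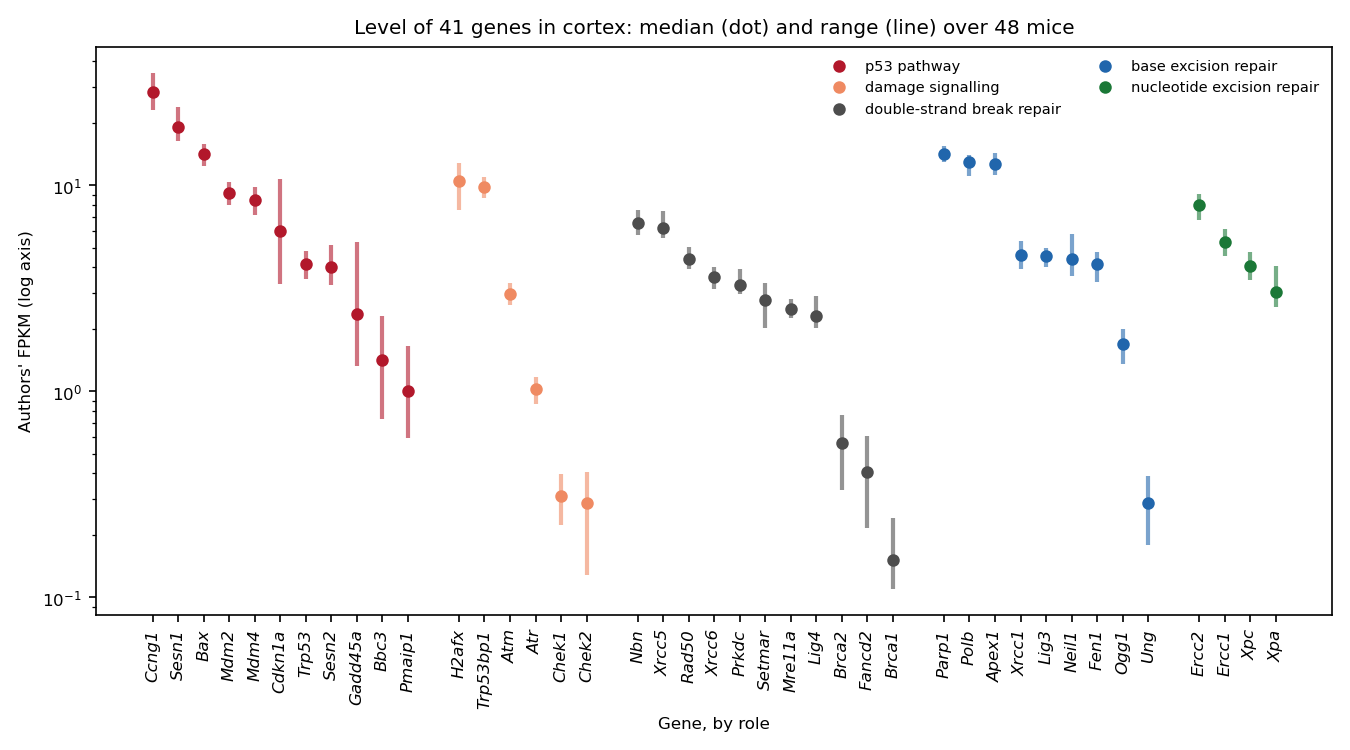
Level of each of the 41 genes in cortex on a logarithmic axis of the authors' FPKM, with dots for the median and lines for the lowest and highest of 48 mice, grouped by role. Ccng1 and Sesn1 lie at the top, Brca1, Chek2, Ung and Chek1 at the bottom, and Cdkn1a and Gadd45a have long lines.

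Members differed widely in how much they varied between mice of the same genotype and sex. The biological coefficient of variation from edgeR was largest for Gadd45a (28.8%) and Cdkn1a (28.1%), then Pmaip1 (19.8%), Bbc3 (17.8%) and Fancd2 (17.5%), beside a median of 8.58% over all tested genes. It was smallest for Mre11a (4.12%), a nuclease of the break-sensing complex, Trp53bp1 (4.43%), which directs breaks to end joining, Polb (4.45%), Parp1 (4.52%) and Lig3 (4.52%), the ligase of base excision repair. So 4 of the 5 most variable members were p53 targets, and the 5 steadiest were repair or signalling genes. The roles did not divide cleanly beyond this cut. The p53 targets Mdm2 (4.74%) and Bax (4.77%) lay close to the steadiest, and the repair gene Brca2 stood at 14.3%. Mean levels of the 6 genotype groups lay close together: the highest group mean exceeded the lowest by a median of 1.08-fold over the 41 genes, by less than 1.2-fold in 35 of them and by 1.51-fold at most.

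Whether the Q140 allele moved the p53 response was asked first against WT. No p53 pathway or repair gene passed the test: 0 of 41 had an edgeR adjusted p under 0.05, where 0.01% of the 20010 tested genes were called, and DESeq2 and limma also called 0. At an unadjusted p under 0.05 there were 8 of 41 (19.5%), beside 5.48% of all tested genes, 2 higher (Setmar and Xpa) and 6 lower (Mdm2, Bax, Gadd45a, Cdkn1a, Lig3 and Polb) in Q140. The members were chosen with earlier results of these data known, so the larger share among them tests nothing about the set. The median log2 difference of the 41 was -0.01, beside 0.00 over all genes. For most of those 8 genes WT lay at an end of the 6 groups. Its group mean was the highest for Mdm2, Bax, Gadd45a, Cdkn1a and Lig3, and the lowest for Setmar and Xpa. Averaged over the p53 pathway genes, log2 levels stood 0.11 above the mean of all mice in WT. Every other group, with or without Q140, stood between -0.050 and -0.005. The p53 pathway genes did not all move this way. WT was also highest for Trp53 and Bbc3, but lowest for Ccng1 and Sesn1, and Q140 was highest for Pmaip1 and Sesn2. Within WT the p53 pathway mean was 0.15 in males and 0.05 in females. The further p53 targets read below averaged 0.02 in WT. The part of the WT group in the count of 8 was not tested.

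Setmar had the smallest p. It encodes a histone methyltransferase whose primate form is fused to a transposase and takes part in end joining, a fusion that the mouse gene lacks, and it lies on the plus strand at chr6:108065045-108077122 (GRCm38, GENCODE M21). WT mice ran from 3.56 to 4.57 CPM with a median of 4.28, and Q140 mice from 4.85 to 5.60 with a median of 5.01. All 8 Q140 mice thus lay above all 7 WT mice, a separation seen in 0.0600% of tested genes and in no other member. The difference was 0.30 ± 0.07 on the log2 scale (interval 0.16 to 0.43), ranked 6 of 20010 by p, and did not pass after adjustment (edgeR adjusted p = 0.305). Over the alternative analyses it stayed between 0.22 and 0.31, with an adjusted p from 0.112 to 0.983. It was 0.27 in females alone and 0.31 in males alone. Of 11 tested genes within 1000 kb of Setmar, 0 had an unadjusted p under 0.05 in the same comparison.

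The p53 genes with small p all stood lower in Q140 than in WT. Mdm2, the ubiquitin ligase that p53 induces, ran from 45.5 to 51.6 CPM with a median of 49.0 in WT and from 41.4 to 48.4 with a median of 44.9 in Q140, a difference of -0.10 ± 0.04 (edgeR adjusted p = 0.846). Cdkn1a, the p21 cell cycle inhibitor, ran from 11.998 to 22.8 CPM (median 15.8) in WT and from 7.31 to 19.9 (median 11.3) in Q140, a difference of -0.47 ± 0.21 (edgeR adjusted p = 0.892). Trp53 ran from 16.1 to 18.5 CPM (median 17.7) in WT and from 15.4 to 19.2 (median 17.1) in Q140, and differed by -0.03 ± 0.05 (edgeR adjusted p = 0.964). For each of these genes the ranges of the 2 groups overlapped.

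Among the repair genes, Lig3 came second by p, with 33.2 to 35.96 CPM (median 34.8) in WT and 29.9 to 34.2 (median 31.8) in Q140, a difference of -0.12 ± 0.04 (edgeR adjusted p = 0.822). The antisense partner that shares exon bases with Lig3 is Rffl, an E3 ligase gene. Gadd45a, a stress-induced growth arrest gene, showed that the WT group was itself uneven. Its 4 WT males lay between 6.57 and 8.04 CPM and its 3 WT females between 3.17 and 4.93, while Q140 mice of both sexes lay between 2.95 and 6.15. In WT the mean of 10 immediate early genes moved the same way. It averaged 0.88 log2 units above the mean of all mice in males and -0.39 in females. It ranged from -0.92 to 1.09 over WT and from -1.58 to 0.52 over Q140. By sex it went with Gadd45a also in Q140 and Q140 x Msh3-/-, but not in Msh3+/-, Q140 x Msh3+/- or Msh3-/-. In Msh3-/- it averaged 0.47 in males and -0.08 in females, with Gadd45a at 4.12 and 4.45 CPM. The part of the immediate early genes in the Gadd45a and Cdkn1a values was not tested.

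**Figure D2:**
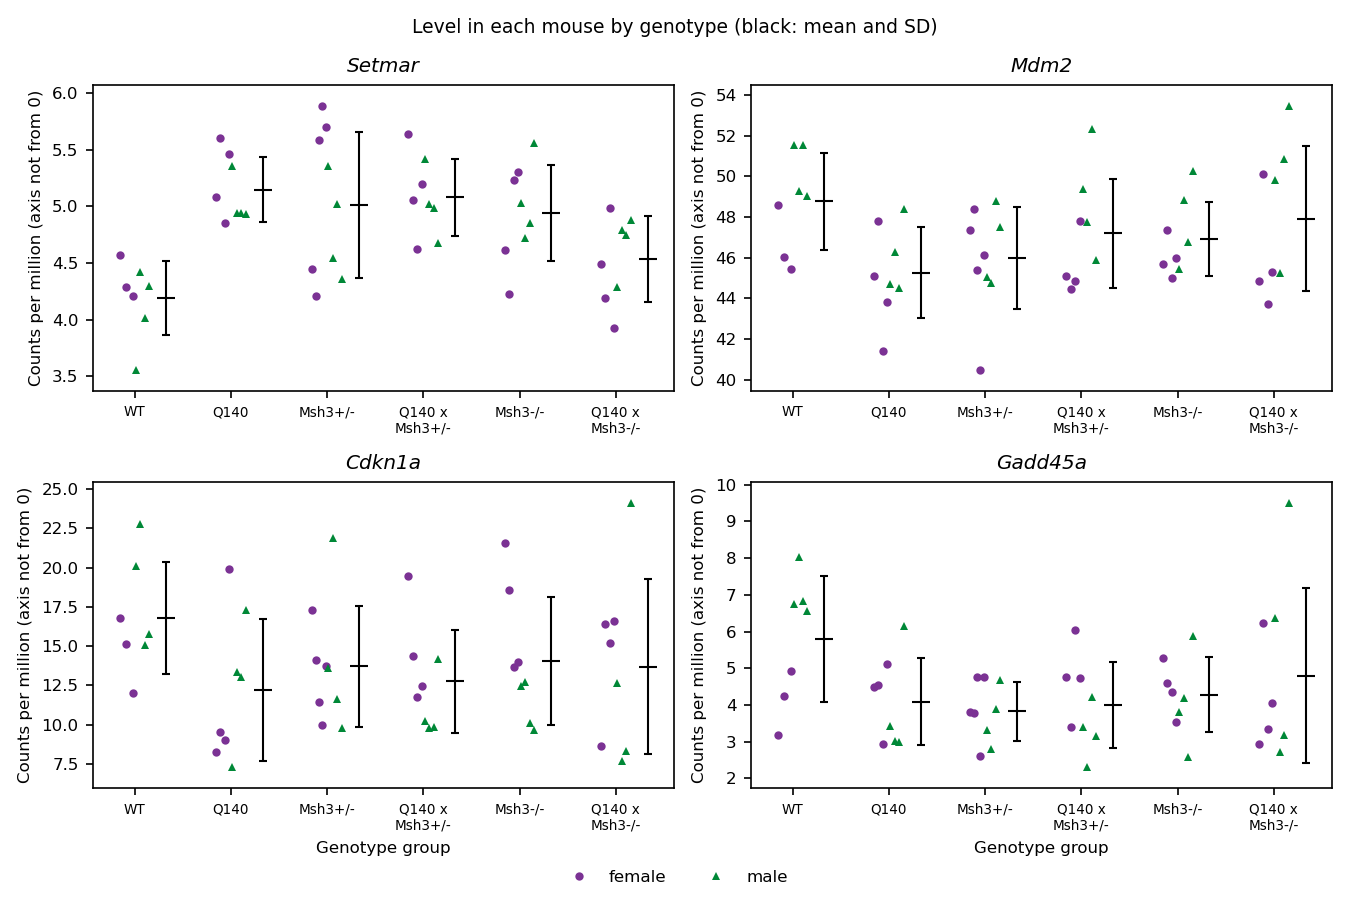
Level in CPM in each mouse for Setmar, Mdm2, Cdkn1a and Gadd45a by genotype, with circles for females, triangles for males, and the black mark and bar for the group mean and SD (axes do not start at 0). Setmar in WT lies wholly below Q140, whereas for the 3 p53 targets every group overlaps WT, and the 4 WT males are the high points of Gadd45a in WT.

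Within the altered Msh3 groups few members had a small p for the Q140 allele. In mice labelled Q140 x Msh3+/- against Msh3+/-, 0 of 41 members were called (background 0.015%) and 1, Polb (0.06 ± 0.03, edgeR adjusted p = 0.780), had an unadjusted p under 0.05, beside 6.20% of all genes. In Q140 x Msh3-/- against Msh3-/-, 0 of 41 were called (background 0%) and 2 had an unadjusted p under 0.05, beside 6.80% of all genes: H2afx, the histone that marks breaks, at -0.13 ± 0.06 (edgeR adjusted p = 0.710) and Pmaip1 at 0.34 ± 0.16 (edgeR adjusted p = 0.718). DESeq2 and limma called 0 members in both. Mdm2, which stood at -0.10 against WT, stood at 0.03 ± 0.03 and 0.03 ± 0.04 in these comparisons (edgeR adjusted p = 0.888 and 0.887). Cdkn1a stood at -0.10 ± 0.20 and -0.04 ± 0.21 (edgeR adjusted p = 0.949 and 0.977) and Trp53 at 0.07 ± 0.04 and 0.04 ± 0.04 (edgeR adjusted p = 0.787 and 0.868).

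Averaged over the 3 Msh3 genotypes, the Q140 effect on the 41 genes was small and its intervals were narrow. No member was called (0 of 41, background 0.035%, with 0 also by DESeq2 and limma), and 2 had an unadjusted p under 0.05, beside 5.63% of all genes: Lig3 at -0.06 ± 0.02 (edgeR adjusted p = 0.642) and Chek1 at -0.13 ± 0.06 (edgeR adjusted p = 0.856). The median absolute difference was 0.03 log2 units, beside 0.03 over all genes. In 38 of 41 genes the whole 95% interval lay within 1.2-fold of no change, and in 30 of 41 within 1.1-fold; the 3 genes with wider intervals were Cdkn1a, Gadd45a and Pmaip1. For Cdkn1a the estimate was -0.20 ± 0.12 (interval -0.44 to 0.03), or 0.736- to 1.02-fold (edgeR adjusted p = 0.894). Mdm2 stood at -0.01 ± 0.02 and Trp53 at 0.03 ± 0.03 (edgeR adjusted p = 0.978 and 0.967).

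The labelled loss of Msh3, a mismatch repair protein, was set against the same WT mice. In mice labelled Msh3+/-, 0 of 41 members were called (background 0.025%) and 5 had an unadjusted p under 0.05, beside 9.50% of all genes. Setmar stood at 0.25 ± 0.07 (edgeR adjusted p = 0.311), Gadd45a at -0.59 ± 0.21 (edgeR adjusted p = 0.384), Bax at -0.10 ± 0.04 (edgeR adjusted p = 0.415), Ccng1 at 0.15 ± 0.06 and Mdm2 at -0.07 ± 0.04 (edgeR adjusted p = 0.519). The Gadd45a difference was -0.93 in males alone and -0.05 in females alone. In mice labelled Msh3-/-, 0 of 41 were called (background 0.035%), and 5 had an unadjusted p under 0.05, beside 5.73% of all genes. DESeq2 and limma called 0 members in both comparisons.

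Bax had the smallest p for the Msh3-/- label. WT mice ran from 23.3 to 24.7 CPM (median 23.9) and mice labelled Msh3-/- from 19.6 to 23.6 (median 21.8), a difference of -0.14 ± 0.04 (edgeR adjusted p = 0.538). The 2 ranges overlapped only between 23.3 and 23.6 CPM. Bax shares 12.2% of its exon bases with Gm45808, a protein-coding gene on the same strand in GENCODE M21. The part of this overlap in its counts was not tested. Setmar followed, with 4.23 to 5.55 CPM (median 4.94) in mice labelled Msh3-/- against 3.56 to 4.57 in WT, at 0.24 ± 0.07 (edgeR adjusted p = 0.538). The other 3 were p53 pathway genes that stood lower: Pmaip1 at -0.43 ± 0.16, Sesn2 at -0.18 ± 0.08 and Trp53 at -0.10 ± 0.05 (edgeR adjusted p = 0.848 for each). Mdm2 stood at -0.05 ± 0.04 and Cdkn1a at -0.27 ± 0.21 (edgeR adjusted p = 0.924 and 0.926). The Q140, Msh3+/- and Msh3-/- comparisons share the 7 WT mice, so a low or high value in WT enters all 3 of them. Setmar, for example, had its lowest group mean in WT (4.19 ± 0.33 CPM, SD, n = 7), then Q140 x Msh3-/- (4.54 ± 0.38, n = 8), with the other 4 groups between 4.94 and 5.15 and overlapping one another.

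With Q140 present, the label effect was tested against Q140 mice. In Q140 x Msh3+/- against Q140, 0 of 41 were called (background 0.02%) and 5 had an unadjusted p under 0.05, beside 5.14% of all genes. In Q140 x Msh3-/- against Q140, 0 of 41 were called (background 0.045%) and 4 had an unadjusted p under 0.05, beside 9.07% of all genes. DESeq2 and limma again called 0 members. Polb, the repair polymerase beta, had the smallest p in both, at 0.11 ± 0.03 each time (edgeR adjusted p = 0.931 and 0.337); these comparisons share the 8 Q140 mice. Q140 mice ran from 43.4 to 52.2 CPM of Polb (median 48.3), Q140 x Msh3+/- from 49.0 to 54.2 (median 51.7) and Q140 x Msh3-/- from 50.4 to 53.3 (median 51.9), so the Q140 range was the widest and reached lowest, while its top overlapped the others. The next by p were Xpa, the damage-verification protein of nucleotide excision, at -0.17 ± 0.07 and Xrcc5 at -0.10 ± 0.05 for Q140 x Msh3+/- (edgeR adjusted p = 0.960 for each), and Setmar at -0.18 ± 0.07 and Xpc, the lesion sensor, at -0.10 ± 0.04 for Q140 x Msh3-/- (edgeR adjusted p = 0.392 and 0.477). Mdm2 stood at 0.06 ± 0.04 and 0.08 ± 0.04 (edgeR adjusted p = 0.964 and 0.481), Cdkn1a at 0.06 ± 0.21 and 0.16 ± 0.21 (edgeR adjusted p = 0.990 and 0.860), and Trp53 at 0.02 ± 0.04 and -0.03 ± 0.04 (edgeR adjusted p = 0.981 and 0.897).

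Averaged with and without Q140, the Msh3-/- label left 0 of 41 members called (background 0.085%, with 0 also by DESeq2 and limma), and 7 had an unadjusted p under 0.05, beside 9.27% of all genes. Of these 7, 6 stood lower and only Polb stood higher (0.06 ± 0.02, edgeR adjusted p = 0.398). The lower ones were the p53 pathway genes Bax (-0.09 ± 0.03), Sesn2 (-0.16 ± 0.05), Pmaip1 (-0.32 ± 0.11) and Trp53 (-0.07 ± 0.03), and the repair genes Xrcc1, the scaffold of single-strand break repair (-0.07 ± 0.03), and Ercc1, a subunit of the excision nuclease (-0.08 ± 0.03), with edgeR adjusted p between 0.288 and 0.527. Mdm2 stood at 0.02 ± 0.03 and Cdkn1a at -0.06 ± 0.15 (edgeR adjusted p = 0.883 and 0.938). The whole 95% interval lay within 1.2-fold of no change in 34 of 41 genes and within 1.5-fold in all 41.

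**Figure D3:**
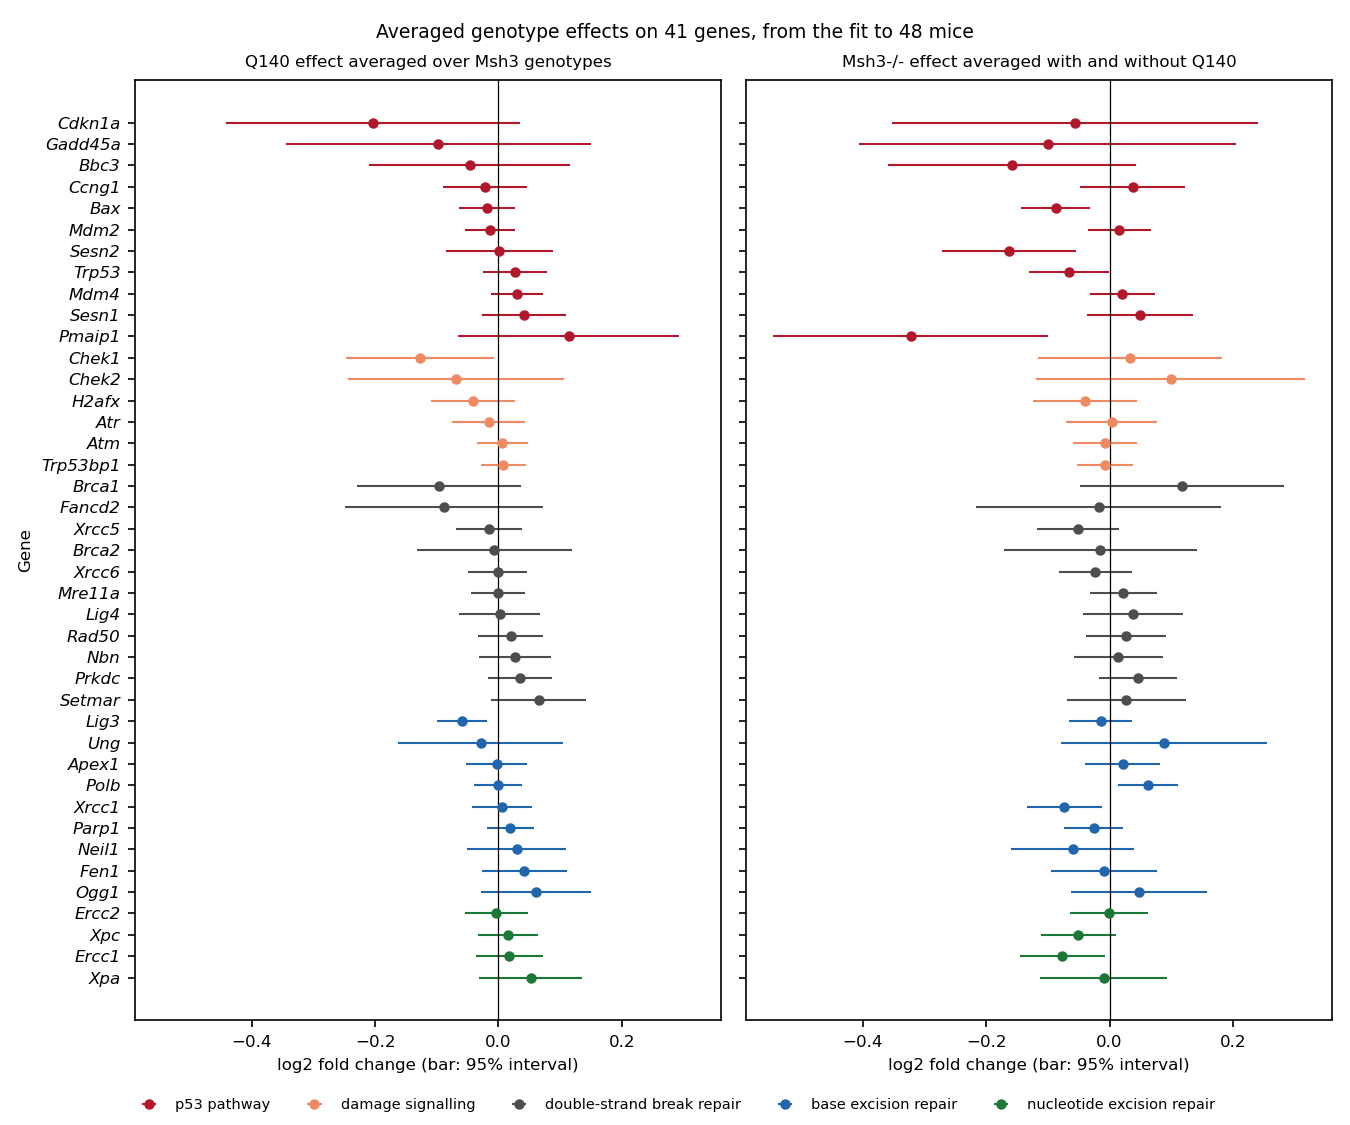
Log2 fold changes of the 41 genes with 95% intervals for the averaged Q140 effect (left) and the averaged effect of the Msh3-/- label (right), ordered and coloured by role. Most intervals cross 0, and the widest belong to Cdkn1a, Gadd45a, Pmaip1 and Bbc3.

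Whether the Q140 effect depended on the Msh3 label was tested as a difference of differences. Both contrasts subtract the same difference between the Q140 and WT mice. A gene with a small p in both was therefore not found independently in each. For Msh3+/- against unaltered Msh3, 0 of 41 members and 0% of all genes were called, and 4 members had an unadjusted p under 0.05, beside 6.43% of all genes. For Msh3-/-, 0 of 41 and again 0% of all genes were called, and 5 had an unadjusted p under 0.05, beside 5.35%. DESeq2 and limma called 0 members in both. Setmar in the Msh3-/- contrast had the smallest p of all 20010 genes, at -0.42 ± 0.10 (interval -0.61 to -0.23), with an edgeR adjusted p of 0.922. Of the 11 tested genes within 1000 kb of it, 2 had an unadjusted p under 0.05 in this contrast, both with the opposite sign: Gm16433 at 0.25 and Bhlhe40 at 0.41 (edgeR adjusted p = 0.922 for each). In the Msh3+/- contrast Polb (0.15 ± 0.05), Setmar (-0.27 ± 0.10), Mdm2 (0.13 ± 0.05) and Bax (0.14 ± 0.05) had the small p, all with an edgeR adjusted p between 0.708 and 0.722. Beside Setmar in the Msh3-/- contrast stood Mdm2 (0.13 ± 0.05), Xpa (-0.22 ± 0.10), Gadd45a (0.65 ± 0.31) and Polb (0.10 ± 0.05), with an edgeR adjusted p between 0.922 and 0.926. Cdkn1a differed by 0.37 ± 0.29 and 0.43 ± 0.30 (edgeR adjusted p = 0.843 and 0.953) and Trp53 by 0.11 ± 0.06 and 0.08 ± 0.06 (edgeR adjusted p = 0.790 and 0.961).

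Between males and females 4 of 41 members were called, where 5.56% of tested genes were: Bbc3, Mdm2 and Mdm4 were higher in males and Mre11a was lower. The 4 differed by at most 1.24-fold. With 4 calls among 41 genes beside that background, no role is singled out. At an unadjusted p under 0.05 there were 9 of 41 members, beside 20.7% of all genes.

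Bbc3, the death gene Puma (chr7:16308393-16318205, plus strand, GRCm38), ran from 1.59 to 3.79 CPM in females (median 2.61, n = 24) and from 2.19 to 4.89 in males (median 3.27, n = 24), a difference of 0.31 ± 0.08 (interval 0.14 to 0.47, edgeR adjusted p = 0.0169). The sexes overlapped, and the male mean was the higher in 5 of 6 genotypes, the exception being Q140 (3.02 against 3.06). Mdm2 ran from 40.5 to 50.1 CPM in females (median 45.4) and from 44.5 to 53.5 in males (median 48.6), a difference of 0.07 ± 0.02 (edgeR adjusted p = 0.0224), and Mdm4, the second inhibitor of p53, from 108 to 138 in females (median 124) and from 119 to 143 in males (median 128), a difference of 0.07 ± 0.02 (edgeR adjusted p = 0.0494). For both genes the male mean was the higher in 6 of 6 genotypes although single mice overlapped. Mre11a ran from 14.0 to 16.7 CPM in females (median 15.2) and from 13.4 to 15.8 in males (median 14.6), a difference of -0.08 ± 0.02 (edgeR adjusted p = 0.0246), and its male mean was the lower in 6 of 6 genotypes. Polb lay just outside the threshold at -0.06 ± 0.02 (edgeR adjusted p = 0.0508), and was called in some alternative analyses, among them DESeq2 and limma voom.

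Trp53 stood at 0.04 ± 0.03 and Cdkn1a at -0.10 ± 0.12 between the sexes (edgeR adjusted p = 0.372 and 0.683). The count of 4 rested in part on libraries and settings. With the 3 outlying libraries of principal component 2 left out, 2 members were called (Mdm2 and Bbc3), and without the 3 libraries with choroid plexus RNA 2 were called (Bbc3 and Mre11a). Bbc3 was called in each of the 12 alternative analyses, Mdm2 in 10, Mre11a in 7 and Mdm4 in 5. Other genes moved with sex as well: all 10 immediate early genes stood higher in males, with Fosb (0.50 ± 0.13, edgeR adjusted p = 0.0164) and Junb (0.55 ± 0.17, edgeR adjusted p = 0.0424) called, all 4 blood markers stood higher with 0 called, and of 4 astrocyte markers 3 stood lower, with Aldh1l1 called (-0.11 ± 0.03, edgeR adjusted p = 0.00496). Their part in the sex differences of Bbc3, Mdm2, Mdm4 and Mre11a was not tested.

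**Figure D4:**
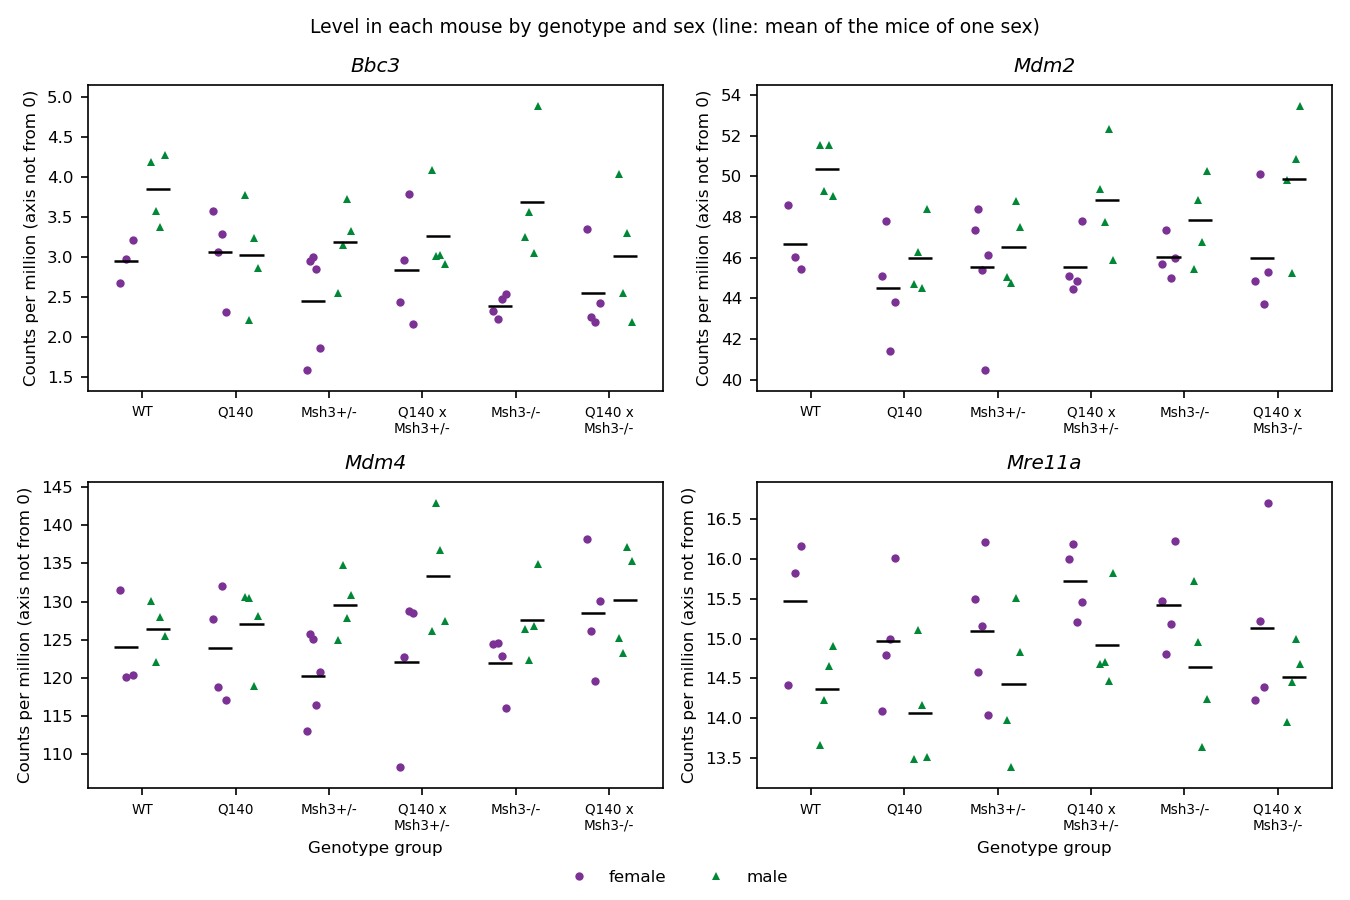
Level in CPM of Bbc3, Mdm2, Mdm4 and Mre11a in each mouse by genotype and sex, with circles for females, triangles for males and lines for the mean of each sex (axes do not start at 0). Male means lie above female means for Mdm2 and Mdm4 and below them for Mre11a in all 6 genotypes, and above them for Bbc3 in 5 of 6.

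Further genes of the same pathways were read from 5 lists of 119 genes, of which 116 were tested. In the 11 genotype comparisons 0 of the 116 were called (edgeR). Against WT, 4 of 116 had an unadjusted p under 0.05 in Q140 (3.45%, beside 5.48% of all tested genes) and 11 of 116 in mice labelled Msh3-/- (9.48%, beside 5.73%). Those 11 included 7 of 29 further p53 targets, 3 higher and 4 lower, with Fbxw7 (0.12 ± 0.04) and Ei24 (0.08 ± 0.02) the smallest p (edgeR adjusted p = 0.658 and 0.660). Between the sexes 6 of the 116 were called, a share near the 5.56% of all tested genes. Of these, Ptprv (-0.43 ± 0.08) and Tigar (-0.12 ± 0.03), both p53 targets, were lower in males, and the targets Rprm (0.39 ± 0.10) and Plk2 (0.11 ± 0.03) were higher, as were the damage signalling genes Atrip (0.13 ± 0.03) and Uimc1 (0.09 ± 0.02), with edgeR adjusted p from 0.000785 to 0.0483. Xrcc4, 2.12 Mb from Msh3 and the partner of Lig4, stood at 0.00 ± 0.08 in mice labelled Msh3-/- against WT (edgeR adjusted p = 0.9997).

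Variation from mouse to mouse was also compared between members once genotype and sex were taken out. Of 820 pairs of members over 48 mice, 75 passed a permutation test of Pearson's r at an adjusted p under 0.05, 45 with positive and 30 with negative r, and the median r was 0.03 (range -0.65 to 0.66). How many pairs of other genes would pass was not computed, so the 75 cannot be called particular to these members. Over the 818729 pairs of a member with any other tested gene, the median r was 0.00 and the range -0.87 to 0.86. A range over so many more pairs is wider for that alone, so the 2 ranges cannot be compared. Among the 36 pairs of p53 targets, 5 passed, 3 positive and 2 negative, and the median r was -0.01. Mdm2 and Gadd45a varied together (r = 0.57, rho = 0.55, adjusted permutation p = 0.00126 and 0.00345), with r = 0.50 without the 2 mice farthest from the median of Mdm2, 0.51 without the 3 outlying libraries, 0.48 in females and 0.66 in males. Cdkn1a and Brca2 ran opposite (r = -0.63, rho = -0.63, adjusted permutation p = 0.00126 and 0.00117), with r = -0.61 without the 2 farthest mice, -0.62 without the 3 libraries, -0.60 in females and -0.66 in males. The Ku subunit Xrcc5 and Nbn had the highest r (r = 0.66, rho = 0.63, adjusted permutation p = 0.00126 and 0.00117), with 0.63 without the 2 farthest mice, 0.61 without the 3 libraries, 0.52 in females and 0.75 in males. All of these values share the library of each mouse with its depth and mix of cells, whose part was not tested.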

How the data were processed

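Per the submitters' processing notes, STAR 2.7.5c, SAMtools 1.10, HTSeq 0.12.3 and the GRCm38 (mm10) genome were used; the annotation release and strand setting are not given in the sources used here. The authors deposited raw read counts per gene (whole numbers) and FPKM per gene, in 1 column per mouse; per the labels, libraries were made with a stranded TruSeq protocol. FPKM served for levels between genes, counts for tests. Levels in CPM use TMM-scaled library totals.

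Counts were tested in R 4.3.3 with edgeR 4.0.16 (filterByExpr, TMM, genotype and sex, quasi-likelihood F-test, all 48 mice). The threshold for a call was 0.05 on the Benjamini-Hochberg adjusted p, over 20010 genes. DESeq2 1.42.0 and limma 3.58.1 were alternatives. FPKM entered limma as log2 of the authors' FPKM plus 0.1 or 1. Errors after ± are SE for differences and SD for levels; intervals are 95%. Simulated counts for Q140 against WT (19851 genes in the fit) held 50 genes changed at each of 1.2-, 1.5-, 2- and 3-fold. The fit recovered 40% of 1.2-fold and 76% of 1.5-fold changes over all changed genes. Among those with a mean count of at least 100, which Chek1, Chek2, Brca1 and Ung do not reach, it recovered 66.7% and 97.2%. It made 162 calls on the simulated counts, 12 of them false, beside 2 calls in the data. An adjusted p under 0.05 is easier to reach when many genes change. The recovered shares are therefore not those to be had in the data, where few genes were called. The 48 mice are separate samples per the labels. Pairs were tested on log2 CPM (prior count 1) after removal of genotype and sex, with 100000 permutations of mice; 1e-05 is the smallest p they can give. The members and lists were chosen with earlier results of these data known. All 41 members could be named; full values are given for called members, for the 3 with the smallest p and for Trp53, Mdm2 and Cdkn1a in each comparison, and, outside the members, for list genes that were called, had 1 of the 2 smallest p of their list, or lay within 10 Mb of Htt or Msh3. The strand-sharing overlaps come from GENCODE M21. Some list genes that this rule would name are not reported here.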

Additional observations from a re-analysis of the deposited data

Results flagged for a closer look

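In each group of 7 to 9 mice the highest or lowest value of each member was compared with its nearest neighbour by Dixon's test, 246 groups of values in all. Chance flags about 1 in 20 groups, and 11 of the 246 were flagged. Trp53 was high in Msh3-/- male 4 (18.6 CPM, next 16.8), as was Neil1, an oxidised-base glycosylase, in the same mouse (10.2, next 8.39). Cdkn1a (19.5, next 14.4) and Pmaip1 (3.41, next 2.71) were both high in Q140 x Msh3+/- female 1. Mdm2 was low (40.5, next 44.7) and Trp53bp1 was high (155, next 143) in Msh3+/- female 4. Sesn1 was high in WT female 1 (74.3, next 61.2) and Ung was low in WT male 1 (1.08, next 1.46). Chek1 was low in Q140 x Msh3+/- female 3 (1.03, next 1.34). Mre11a was high in Q140 x Msh3-/- female 4 (16.7, next 15.2), and Parp1 was low in Q140 x Msh3-/- female 1 (69.9, next 75.5).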

How the results depend on the processing

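In all 11 genotype comparisons the number of members called was 0 in every alternative run: other normalization, filters, DESeq2, limma on counts and on FPKM, no sex term, only the groups compared, replicate block, plate column, name stem, libraries left out, and 1 sex alone. For males against females, 4 members were called; the number was 2 without a low-count filter, 2 with the 3 outlying libraries of principal component 2 left out and 2 without the libraries with choroid plexus RNA. Over 37 single-gene results and 16 settings, 558 of 572 values kept their direction and side of the threshold, and 0 reversed. The other 14 kept the direction but missed the threshold (all between the sexes). Most of the 37 were not called to begin with, so they kept their side by staying uncalled. Only the sex results of Bbc3, Mdm2, Mre11a and Mdm4 could lose a call, and they kept it in 12, 10, 7 and 5 of 12 settings. Sizes were free to vary: Gadd45a in Msh3+/- against WT ran from -0.93 to -0.05 and still counted as kept. With the replicate block 4 members were called between the sexes, Mdm2, Bbc3, Mre11a and Polb, and 0 in each genotype comparison; the replicate numbers do not pair the mice (mean r of deviations -0.03 over 115 same-numbered pairs of 1 sex, beside -0.02 over 364 others). Low counts limit Chek2, Brca1, Ung and Chek1, and spread between mice limits Cdkn1a, Gadd45a and Pmaip1, whose intervals are the widest.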
